A study of Mus musculus with 10 samples.

Results

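Regions of the mouse autosomes where exactly 3 of 4 histone H4 marks were called in spermatocytes and all 4 in round spermatids are described here. The marks were acetylation (ac) and butyrylation (bu) of lysine 5 and of lysine 8 of H4, written H4K5ac, H4K5bu, H4K8ac and H4K8bu. The islands of all 8 lists, 4 per stage, were merged into regions wherever they overlapped by 1 bp or more, and a mark counted as called in a region that held any island of its list. Of 58242 autosomal regions, 1471 (2.53%) met the rule. In spermatocytes 816 of these lacked H4K8ac, 617 lacked H4K5bu, 22 lacked H4K8bu and 16 lacked H4K5ac. The regions were chosen by the calls of all 8 lists, so the presence of each mark, its fold and its difference between the stages are descriptions and carry no test.

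Round spermatids, the haploid cells that follow meiosis, and spermatocytes, the meiotic cells before them, had been fractionated from testes of Oncins France 1 mice, and both stages were otherwise labelled alike. The labels give no age and no treatment and do not say how many animals were pooled. Mononucleosomes were immunoprecipitated with 1 rabbit antibody per mark and sequenced, and DNA without immunoprecipitation was sequenced as the input of each stage. The immunoprecipitation buffer held sodium butyrate, an inhibitor of histone deacetylases. Each mark and stage had 1 library, so replicate spread is unknown for every difference. RNA was not measured in these samples, so the cell types could not be checked against marker genes.

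Acetyl groups on lysines of the H4 tail neutralise the positive charge of the lysine and are read by bromodomain proteins. In male germ cells, BRDT, a bromodomain protein of the testis, binds H4 tails that are acetylated at both lysine 5 and lysine 8, and H4 becomes widely acetylated in later spermatids before histones are replaced. Butyryl groups are longer acyl chains on the same lysines, so on 1 tail a given lysine holds either an acetyl or a butyryl group, and a region with both marks holds a mixture of tails, cells or alleles.

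All intervals are 95%. Those of shares and single folds cover counting error only, as amplified reads lacking molecular identifiers can stem from 1 molecule. Those of medians reflect the spread between regions. The fold of a mark in a region is the ratio of ChIP to input reads over its called islands, times 1 constant per list (1.18 to 2.12) that stands for library size. ChIP reads in islands numbered 4768412 to 9230541 per library. A mark without an island was uncalled, which is not a measured absence.

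Completion of the set in round spermatids was far more frequent for H4K5bu and H4K8ac than for the other marks in the lists as deposited. Of the 5117 autosomal regions with exactly 3 marks in spermatocytes, 28.7% had all 4 in round spermatids, where 39.2% of all autosomal regions had all 4. By the mark that was lacking, the share was 34.1% (31.9 to 36.3) of 1812 regions for H4K5bu, 30.5% (28.8 to 32.3) of 2674 for H4K8ac, 8.99% (5.23 to 14.2) of 178 for H4K5ac and 4.86% (3.07 to 7.26) of 453 for H4K8bu. Many regions had no mark in round spermatids: 49.5% for H4K5bu, 52.1% for H4K8ac, 74.2% for H4K5ac and 83.0% for H4K8bu. Of regions with all 4 marks in spermatocytes 24.8% had none, and 40936 of the 58242 autosomal regions had a round spermatid island. Regions that kept the same 3 marks and still lacked the same 1 were few, 155 for H4K8ac, 8 for H4K5bu, 3 for H4K8bu and 1 for H4K5ac. Among autosomal regions without a given mark in spermatocytes, whatever the other marks, it was called in round spermatids in 63.4% for H4K5bu, 55.3% for H4K5ac, 44.3% for H4K8bu and 27.5% for H4K8ac. For comparison, 57.3% of the 27155 regions with all 4 marks in spermatocytes had all 4 in round spermatids.

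The opposite pattern, all 4 marks in spermatocytes and exactly 3 in round spermatids, was found in 1860 regions and had another make-up. H4K5bu was the mark that differed in 617 regions completed in round spermatids and in 45 regions of the opposite pattern. For H4K8ac the numbers were 816 and 1554, for H4K8bu 22 and 215, and for H4K5ac 16 and 46. H4K5bu was thus the mark with more completed than opposite regions, and it was also the mark whose list was longer in round spermatids, with 41319 islands against 38074 in spermatocytes. The H4K8ac list held 28031 islands in round spermatids and 35791 in spermatocytes.

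The make-up by mark changed when the lists were cut to equal length by fold. The cut took the islands of lowest fold from 7 lists and left the round spermatid H4K8ac list whole. Length and fold thus changed together. With every list shortened to its 28031 islands of highest fold, 828 regions met the rule, of which 304 lacked H4K5bu, 188 H4K8ac, 171 H4K5ac and 165 H4K8bu in spermatocytes. The opposite pattern then had 173, 680, 182 and 257 regions in the same order of marks. H4K5bu kept more completed than opposite regions and H4K8ac fewer, while the scarcity of H4K5ac and H4K8bu was not found at equal length. Of the 1471 regions, 111 (7.55%) lay in a region that met the rule with the same mark lacking at equal length, so the regions described below are those of the deposited lists.

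**Figure D1:**
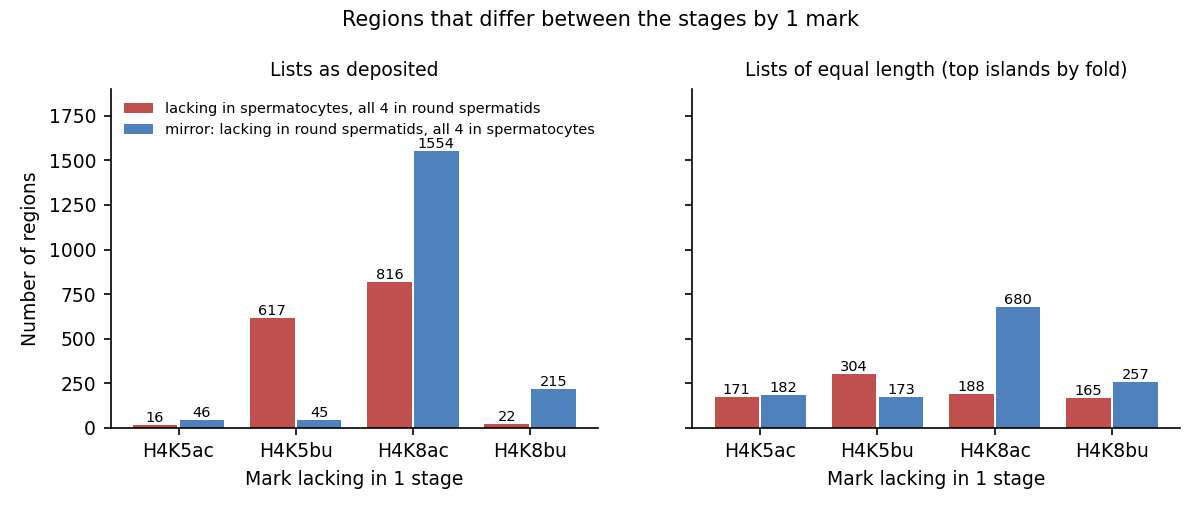
Number of autosomal regions by the mark lacking in 1 stage, for regions completed in round spermatids (red) and for the opposite pattern (blue), in the lists as deposited (left) and in lists of equal length (right). H4K5bu had 617 completed and 45 opposite regions as deposited, and 304 and 173 at equal length.

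Regions completed by H4K8ac, that is, the 816 lacking it in spermatocytes alone, had moderate levels of all 4 marks in round spermatids. H4K8ac itself had a median fold of 2.78 (2.72 to 2.84), from a lowest value of 1.26 to a highest of 6.91. In 318 of the 816 regions (39.0%) this fold was at least 3, and in 12 it was at least 5. Over all autosomal regions with H4K8ac called in round spermatids the median was 3.11 (quartiles 2.51 and 3.78), so more of those regions reached 3. H4K5ac had a median of 4.71 in round spermatids and 3.36 in spermatocytes, H4K5bu 3.55 and 2.37, and H4K8bu 3.47 and 2.73. Each of the 3 marks called in both stages was therefore higher in round spermatids by its median. The quartiles of H4K5ac were 3.84 and 5.87 in round spermatids, against 2.83 and 4.09 in spermatocytes, and those of H4K8bu were 2.91 and 4.26 in round spermatids, against 2.37 and 3.31 in spermatocytes, so for both marks the interquartile ranges of the stages overlapped. For H4K5bu they did not, with 3.04 and 4.29 in round spermatids and 2.06 and 2.86 in spermatocytes.

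Levels in the 617 regions completed by H4K5bu were close to these. H4K5bu had a median fold of 3.34 (3.26 to 3.42) in round spermatids, from 1.27 to 7.93, and 403 regions (65.3%) had at least 3. Over all autosomal regions with H4K5bu called in round spermatids the median was 3.49 (quartiles 2.70 and 4.67), so a majority of those also reached 3. H4K5ac had a median of 4.81 in round spermatids and 3.36 in spermatocytes, H4K8ac 2.74 and 2.29, and H4K8bu 3.43 and 2.74. H4K5ac had the highest of the 4 folds in 88.1% of all 1471 regions and H4K8ac the lowest in 79.9%, where regions with all 4 marks in both stages had 88.6% and 82.0%. The butyryl marks lay between them. In completed regions their medians were close, with overlapping intervals. With H4K5bu completing these were 3.26 to 3.42 for H4K5bu and 3.37 to 3.54 for H4K8bu. With H4K8ac completing they were 3.45 to 3.64 and 3.39 to 3.57. In regions with all 4 marks in both stages the H4K5bu median was above that of H4K8bu (4.70 against 4.26). The mark that had been lacking was the lowest of the 4 in 81.1% of regions completed by H4K8ac, but in 11.8% of those completed by H4K5bu. In regions with all 4 marks in both stages H4K5bu was the lowest in 4.46%.

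Against the 15547 regions with all 4 marks in both stages, the difference lay mostly in spermatocytes. There, the H4K5ac median was 3.36 in regions completed by either mark and 7.87 in regions with all 4 marks in both stages. For H4K8bu it was 2.73 (completed by H4K8ac) and 2.74 (completed by H4K5bu) against 5.66. In round spermatids the gap was smaller, 4.71 and 4.81 against 6.26 for H4K5ac and 3.47 and 3.43 against 4.26 for H4K8bu. Set against all autosomal regions with the mark, 94.7% of regions completed by H4K8ac lay below the median H4K5ac fold in spermatocytes (5.57), and 44.6% lay below it in round spermatids (4.55). The rule used these calls, so the low spermatocyte folds support nothing further.

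**Figure D2:**
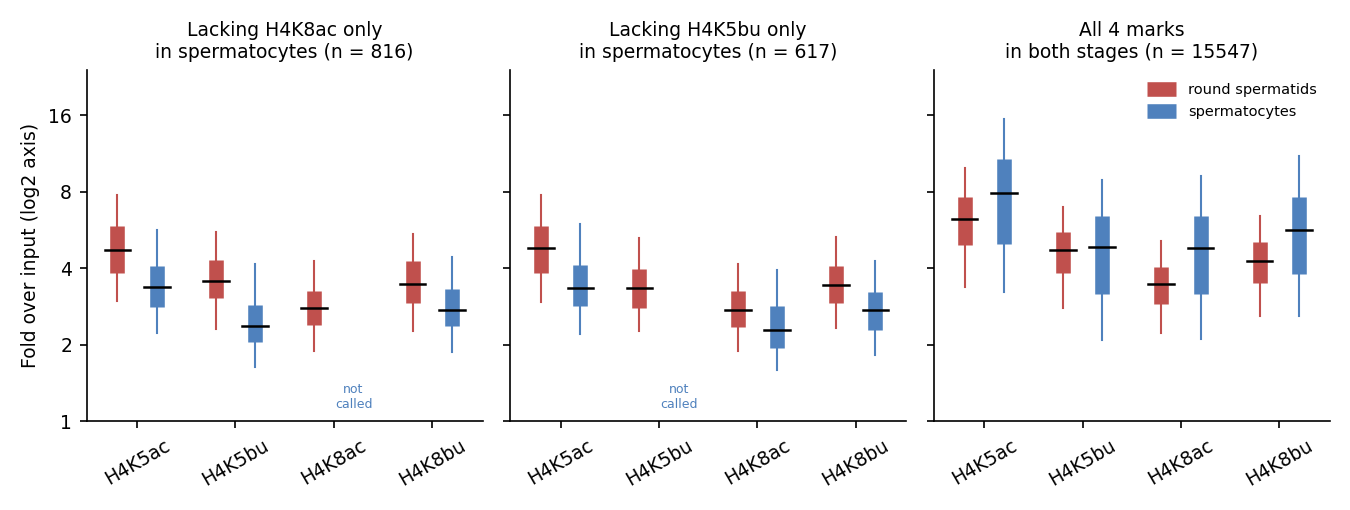
Fold over input (log2 axis) of the 4 marks in regions completed by H4K8ac, in regions completed by H4K5bu and in regions with all 4 marks in both stages, for round spermatids (red) and spermatocytes (blue). Thin lines run from the 5th to the 95th percentile, bars between the quartiles, and black lines mark medians. In the first panel the H4K5ac median is 4.71 in round spermatids and 3.36 in spermatocytes, and in the last panel it is 6.26 and 7.87.

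Taken region by region, the 3 marks called in both stages were mostly higher in round spermatids, while over all regions they were mostly lower. In regions completed by H4K8ac the median log2 ratio of round spermatid to spermatocyte fold was 0.58 for H4K5bu (0.54 to 0.62), 0.50 for H4K5ac (0.45 to 0.57) and 0.34 for H4K8bu (0.30 to 0.39). Over all autosomal regions called in both stages the medians were -0.092 for H4K5bu, -0.25 for H4K5ac, -0.28 for H4K8bu and -0.43 for H4K8ac. The ratio was at least 1.5 in 364 of the 816 regions for H4K5ac (44.6%), 403 for H4K5bu (49.4%) and 244 for H4K8bu (29.9%), where 17.5%, 17.9% and 11.8% of all autosomal regions reached it. A ratio of at most 1/1.5 was found in 22, 17 and 26 of the 816 regions in the same order of marks, where 35.2%, 20.7% and 35.6% of all autosomal regions had one. In 550 regions (67.4%) all 3 marks were higher in round spermatids and in 50 (6.13%) all 3 were lower. The same 3 marks were all higher in 26.4% of regions with all 4 marks in both stages and all lower in 47.6%.

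Regions completed by H4K5bu gave median log2 ratios of 0.49 for H4K5ac (0.45 to 0.55), 0.23 for H4K8ac (0.19 to 0.28) and 0.36 for H4K8bu (0.31 to 0.40). H4K8ac, which had the lowest ratio over all autosomal regions, had a round spermatid fold of at least 1.5 times the spermatocyte fold in 133 of the 617 regions (21.6%), where 6.99% of all autosomal regions were, and at most 1/1.5 times in 29 (4.70%), where 40.7% were. All 3 marks were higher in round spermatids in 369 regions (59.8%) and all lower in 45 (7.29%). In regions with all 4 marks in both stages the same 3 were all higher in 21.4% and all lower in 58.5%. These ratios come from the contrast that the rule used, so nothing is read from them beyond their values.

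**Figure D3:**
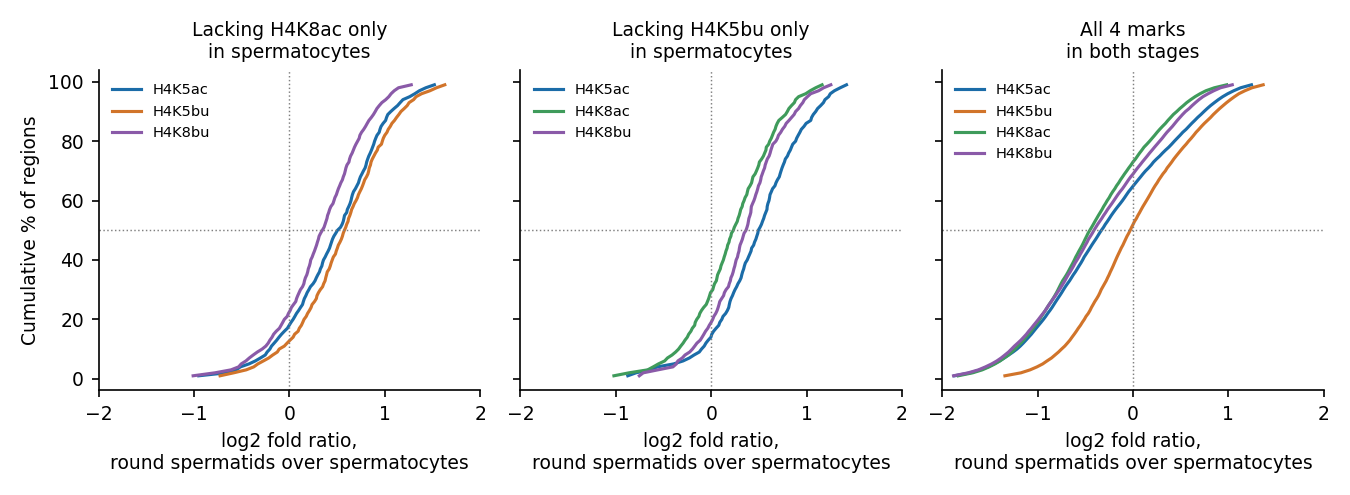
Cumulative percent of regions by the log2 ratio of round spermatid to spermatocyte fold, for marks called in both stages. Curves of regions completed by H4K8ac (left) and by H4K5bu (middle) cross 50% to the right of 0, between 0.23 and 0.58, and those of regions with all 4 marks in both stages (right) cross it between -0.45 and -0.029.

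The islands were also longer in round spermatids. Over all 1471 regions the islands of the 4 round spermatid lists together spanned a median of 6200 bp, and those of the 3 called spermatocyte lists 4000 bp. The round spermatid span was the longer in 1350 regions (91.8%), but it was taken over more lists. No such share was taken over other regions. By mark, the median ratio of island length was 1.62 for H4K5ac, 1.62 for H4K5bu, 1.46 for H4K8bu and 1.25 for H4K8ac, where over all autosomal regions called in both stages it was 1.27, 1.08, 1.2 and 1.09. The folds of the stages were therefore not taken over the same bases. The regions were 6200 bp long by the median (4800 to 8200 between the quartiles), longer than all autosomal regions (3600) and shorter than regions with all 4 marks in both stages (8200).

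The mark that completed the set lay mostly where the other 3 had been called in spermatocytes. Regions were built from overlapping islands, which favours such sharing of place. In regions completed by H4K8ac, a median of 100% of the bases of its round spermatid islands lay on spermatocyte islands of the other 3 marks. All bases did so in 414 of the 816 regions and none in 2. In regions completed by H4K5bu the median was 82.9%, with all bases in 128 of the 617 regions and none in 1. The other marks of the same regions give a yardstick, though the spermatocyte islands they were scored on include their own. With H4K8ac lacking, 81.7% of the H4K5ac, 78.6% of the H4K5bu and 75% of the H4K8bu bases in round spermatids lay on spermatocyte islands. With H4K5bu lacking the values were 82.1% for H4K5ac, 97.2% for H4K8ac and 78.8% for H4K8bu. H4K8ac islands were the shortest of the 4 in round spermatids (median 3400 bp in regions completed by it, against 4800 to 5200 bp for the other marks). In both of these sets the highest share on spermatocyte islands was that of H4K8ac. It was not so in the small sets. With H4K8bu lacking H4K8ac had 82.7% and H4K5bu 84.2%, and with H4K5ac lacking H4K8ac had 90.2% and H4K8bu 90.7%.

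The 3 marks of spermatocytes mostly shared their place. In 1453 of the 1471 regions (98.8%) their islands had at least 1 bin of 200 bp in common, with a median of 2000 bp, and in 1417 (96.3%) such a bin was also shared by all 4 round spermatid lists. The merging of islands thus joined separate places in few of the regions. Such sharing was not counted in other regions, so whether it is particular to these is unknown. The spermatocyte list of the lacking mark had its nearest island at a median distance of 19.2 kb (17.2 to 22.2) from regions completed by H4K8ac and 22.8 kb (19.6 to 26.8) from those completed by H4K5bu. Within 5 kb of the region lay such an island for 12.3% of regions completed by H4K8ac and 12.8% of those completed by H4K5bu. Among regions with the same 3 marks and no mark in round spermatids the shares were 16.4% for H4K8ac and 10.5% for H4K5bu, and among those that kept 3 marks without H4K8ac the share was 22.6%. Median distances in regions without a mark later were 17.8 kb (16.8 to 19.4) for H4K8ac and 23.2 kb (21.0 to 26.4) for H4K5bu, within the intervals of the completed regions, and in the 155 regions that kept 3 marks without H4K8ac the median was 12 kb (9 to 15.2).

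**Figure D4:**
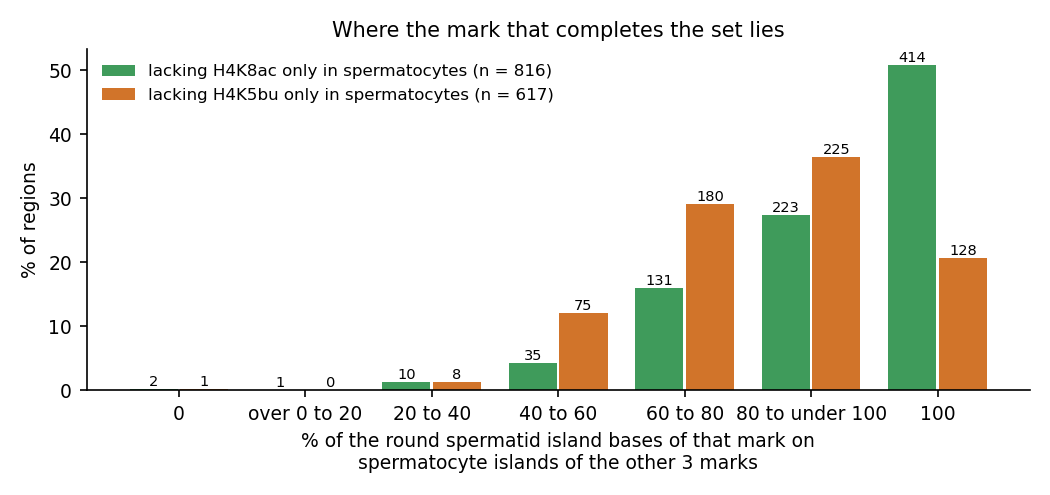
Percent of regions by the share of the round spermatid island bases of the completing mark that lay on spermatocyte islands of the other 3 marks, for H4K8ac (green, 816 regions) and H4K5bu (orange, 617 regions), with the number of regions above each bar. The share was 100% in 414 regions for H4K8ac and in 128 for H4K5bu.

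Regions that lacked only H4K8ac or only H4K5bu in spermatocytes were compared by their later marks. Those that became complete were broad and low in spermatocytes, and those with no mark in round spermatids were narrow and higher. With H4K8ac lacking, the spermatocyte islands together spanned a median of 4200 bp (4000 to 4400) in completed regions and 2300 bp (2200 to 2400) in the 1394 regions without a mark later. The spermatocyte H4K5ac fold was 3.36 (3.28 to 3.43) in completed regions and 4.55 (4.44 to 4.64) in the others, the H4K5bu fold 2.37 and 3.47, and the H4K8bu fold 2.73 and 3.68. With H4K5bu lacking, the span was 4000 bp (3800 to 4200) in completed regions and 2000 bp (2000 to 2000) in the 897 without a mark later, and the H4K5ac fold was 3.36 (3.26 to 3.44) and 4.55 (4.39 to 4.68). Input was also somewhat deeper in completed regions, at 16.1 and 16.6 spermatocyte input reads per kb with H4K8ac and H4K5bu lacking, against 14.2 and 14.8, and its part in these differences was not tested. The rule used the spermatocyte calls of both sets, and the sets were parted by the round spermatid calls. Round spermatid islands also took part in the merging. In completed regions they could join spermatocyte islands that lay apart, which could not happen in regions without a mark later. Spermatocyte H4K5ac lay in 1 island in 93.8% of regions completed by H4K8ac and in 99.2% of those without a mark later. How much such joining added to the spans was not tested.

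Regions completed by the other marks were few and of mixed kinds. The 16 completed by H4K5ac had a median H4K5ac fold of 3.69 (3.06 to 4.55) in round spermatids, from 1.92 to 5.93, and were short, with a median of 3800 bp. H4K5bu there had a median fold of 2.82 in round spermatids and 2.05 in spermatocytes, H4K8bu 3.12 and 2.18, and H4K8ac 2.55 and 2.56. The 22 completed by H4K8bu had a median H4K8bu fold of 2.76 (2.28 to 3.25) in round spermatids, from 1.18 to 5.83. H4K5ac there had a median of 3.65 in round spermatids and 3.24 in spermatocytes, H4K5bu 3.10 and 2.19, and H4K8ac 2.37 and 2.14. With so few regions the interval of the median log2 ratio of round spermatid to spermatocyte fold was wide. In regions completed by H4K5ac it was -0.42 to 0.42 for H4K8ac, -0.048 to 1.03 for H4K5bu and 0.099 to 0.72 for H4K8bu. In regions completed by H4K8bu it was -0.43 to 0.58 for H4K8ac, -0.40 to 0.79 for H4K5ac and 0.14 to 0.89 for H4K5bu. These intervals reflect spread between regions of 1 library per stage and mark, and the rule used this contrast. They therefore test no difference between the stages.

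The balance of butyryl over acetyl fold at a lysine was taken where both marks were called. In round spermatids it was close to that of regions with all 4 marks in both stages at lysine 8. At lysine 5 it was close in regions completed by H4K8ac and lower by its median in those completed by H4K5bu. Its median log2 value at lysine 5 was -0.40 (-0.44 to -0.38) in regions completed by H4K8ac and -0.51 (-0.54 to -0.48) in those completed by H4K5bu, against -0.42 (-0.42 to -0.41) in regions with all 4 marks in both stages. At lysine 8 it was 0.33 (0.31 to 0.36) and 0.32 (0.30 to 0.36), against 0.33 (0.33 to 0.33). In spermatocytes the balance at lysine 5 could be read in regions completed by H4K8ac, where it was -0.48 (-0.51 to -0.45), against -0.69 (-0.70 to -0.69) in regions with all 4 marks in both stages. At lysine 8 in regions completed by H4K5bu it was 0.22 (0.19 to 0.25) in spermatocytes, against 0.28 (0.28 to 0.29). The rule used the calls of these marks, H4K5bu among them, so the differences in balance carry no test.

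The regions were spread over all 19 autosomes. Their share of a chromosome's regions ran from 1.98% (1.35 to 2.78) on chromosome 19 to 3.21% (2.49 to 4.06) on chromosome 18, and the counting intervals of these extremes overlapped. Chromosomes 2 and 1 held the most, 116 and 113. Length made little difference to the level: split by length into 3 groups of about equal size, shortest first, regions completed by H4K8ac had median round spermatid H4K8ac folds of 2.87, 2.81 and 2.71, and those completed by H4K5bu had H4K5bu medians of 3.46, 3.35 and 3.26.

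Some regions had high folds of the completing mark. All positions are in the mouse build mm9, counted from 1, and the sources used here gave no gene annotation of that build, so genes are not named. On chromosome 1 from 101203401 to 101207400, H4K8ac had 117 ChIP reads over 24 input reads in round spermatids, a fold of 6.91 (4.43 to 11.2), and no island in spermatocytes. H4K5ac there had a fold of 9.89 in round spermatids and 3.51 in spermatocytes, with intervals that did not overlap, H4K5bu 6.09 and 3.96, and H4K8bu 5.91 and 3.98. On chromosome 5 from 38250201 to 38268600, a region of 18400 bp, H4K8ac lay in 3 islands with 520 ChIP over 214 input reads in round spermatids, a fold of 3.45 (2.93 to 4.06). H4K5ac over this region was at 6.84 (5.98 to 7.85) in round spermatids, against 2.69 (2.21 to 3.28) in spermatocytes, so the intervals were apart, and H4K5bu had 4.19 (3.69 to 4.77) and 2.37 (1.62 to 3.52).

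For H4K5bu the highest fold was 7.93 (4.95 to 13.3), on chromosome 1 from 152870601 to 152874400. The other marks there also had high folds in round spermatids, 8.22 for H4K8bu, 7.16 for H4K5ac and 5.44 for H4K8ac, against 4.23, 5.01 and 3.36 in spermatocytes. On chromosome 8 from 101783601 to 101787600, H4K5bu had a fold of 6.41 (4.58 to 9.15) in round spermatids. Of the other marks, H4K5ac reached 14.0 (8.98 to 22.7) in round spermatids, against 6.47 (4.30 to 10.0) in spermatocytes, and the nearest spermatocyte H4K5bu island was 111.2 kb away. H4K8bu was highest on chromosome 2 from 62804001 to 62810000, with 5.83 (4.47 to 7.70) in round spermatids, where H4K5ac was at 6.64 (5.14 to 8.67) in round spermatids, against 2.61 (1.83 to 3.76) in spermatocytes. H4K5ac as the completing mark was highest on chromosome 1 from 177753201 to 177756600, with 5.93 (4.19 to 8.53).

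**Figure D5:**
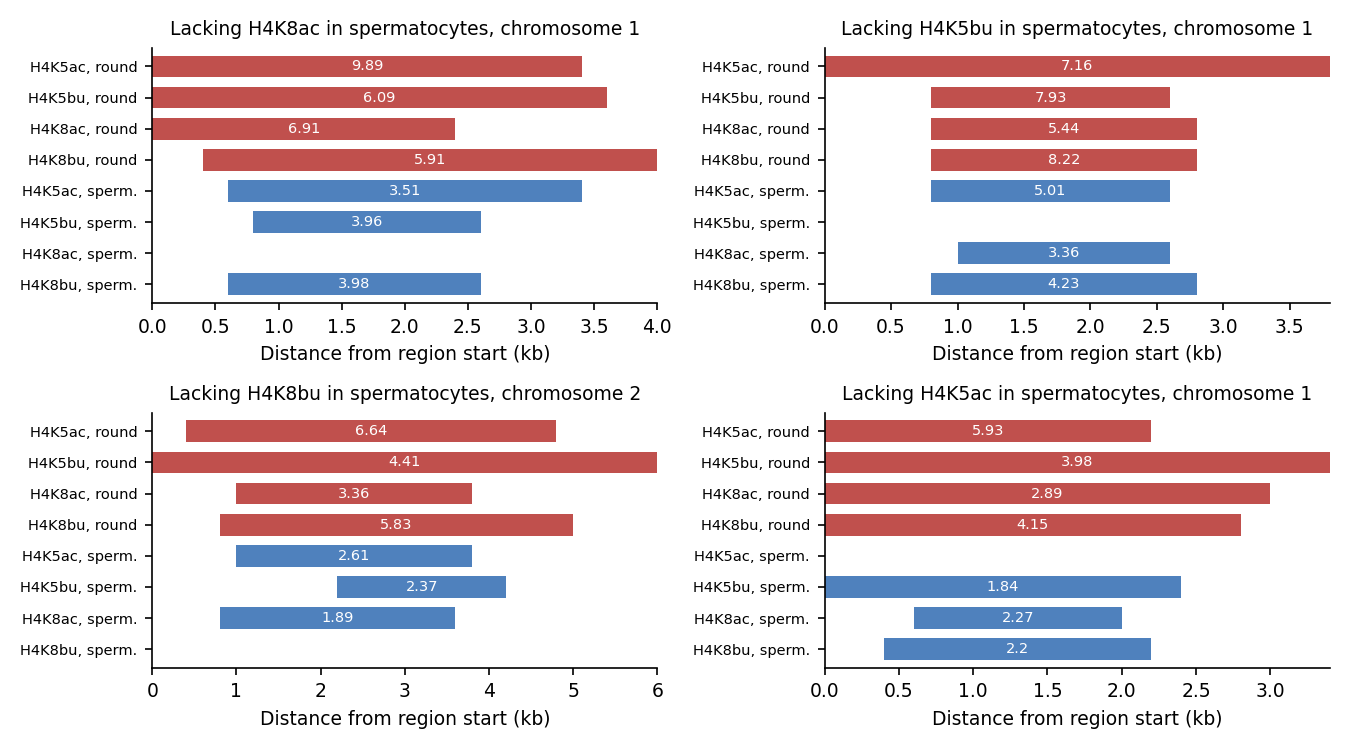
Islands of the 8 lists in the region with the highest round spermatid fold of the completing mark, for H4K8ac, H4K5bu, H4K8bu and H4K5ac, by distance from the start of the region in kb. Round spermatid islands are red and spermatocyte islands blue, the number on an island is its fold, and the empty row is the mark without a spermatocyte island. The completing marks have folds of 6.91, 7.93, 5.83 and 5.93.

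Strong spermatocyte marks beside an uncalled one were also found. On chromosome 1 from 130483001 to 130490600, H4K5ac had a fold of 3.56 (2.73 to 4.66) in round spermatids, against 7.91 (4.57 to 14.5) in spermatocytes. H4K8bu was at 2.51 (1.96 to 3.24) in round spermatids, against 6.94 (4.34 to 11.6) in spermatocytes, and H4K5bu at 2.76 (1.91 to 4.03) in round spermatids, against 7.12 (3.93 to 14.0) in spermatocytes. H4K8ac had 2.31 (1.63 to 3.31) in round spermatids and no island in spermatocytes. In this region 6.25% of the H4K8ac bases lay on spermatocyte islands, and the H4K5bu islands of the stages did not overlap. The H4K5ac and H4K8bu islands of spermatocytes lay almost wholly or wholly within those of round spermatids. On chromosome 2 from 85035801 to 85041800, without an H4K5bu island in spermatocytes, H4K8ac was at 2.45 (1.61 to 3.78) in round spermatids, against 12.2 (5.30 to 34.7) in spermatocytes, where it had 59 ChIP over 6 input reads.

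A few regions met the rule over very deep input with low folds. Input above 52.8 reads per kb in round spermatids, 3 times the median of all regions with a round spermatid island, was found in 10 of the 1471 regions (0.680%), and in 0.349% of all such autosomal regions. In all 10 the completing mark had a fold under 2 over its islands together. On chromosome 11 from 3018401 to 3107600, H4K8bu had 19369 ChIP over 25075 input reads in round spermatids, a fold of 1.18, and the spermatocyte folds of the other marks were 1.06 to 1.13. This H4K8bu value pools 2 islands, a long one of fold 1.17 and a short one, from 84.6 to 89.2 kb into the region, of fold 3.55. With lists of equal length the value was 3.55 and the region did not meet the rule. Beside the short island H4K5bu had an island of fold 5.54 in round spermatids and 4.83 in spermatocytes, and H4K8ac one of 3.24 in round spermatids. On chromosome 8 from 19679201 to 19760800, H4K5bu had a fold of 1.58 (1.53 to 1.63) over 7789 input reads, and on chromosome 2 from 98502201 to 98507600 one of 1.31 (1.26 to 1.37) over 4098. Without these 10 regions, 814 lacked H4K8ac, 613 H4K5bu, 19 H4K8bu and 15 H4K5ac.

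At the calling threshold, a q-value of 0.01, the weakest calls of the 3 regions just inside had folds of 1.13 to 1.51. On chromosome 12 from 3109801 to 3110200 the weakest call was spermatocyte H4K8bu with a q-value of 0.00992 and a fold of 1.13 from 389 ChIP over 409 input reads. On chromosome 8 from 82095201 to 82101600 it was spermatocyte H4K8ac with 0.00966 and a fold of 1.35 from 61 over 56. On chromosome 13 from 111392001 to 111393800 it was also spermatocyte H4K8ac, with 0.00901 and a fold of 1.51 from 34 over 28. Just outside lay regions that would have met the rule without 1 weak spermatocyte call, such as chromosome 2 from 174895201 to 174906200, where spermatocyte H4K5bu had a q-value of 0.0093 and a fold of 1.12. The uncalled marks themselves have no deposited value. Spermatocyte H4K8ac islands with the input of these regions (35.0 to 67.0 reads, the quartiles of the other marks) were called at folds down to 1.34, with a 5th percentile of 1.89 and a median of 3.73. The round spermatid H4K8ac fold was above that percentile in 775 of the 816 regions. For H4K5bu, with 34.0 to 65.0 input reads, the lowest called fold was 1.36 and the 5th percentile 1.93, and 607 of the 617 regions (98.4%) had a round spermatid H4K5bu fold above it. By definition, all but the lowest 5% of the spermatocyte islands compared lie above that percentile. The regions were also chosen for a round spermatid call. These shares therefore do not tell whether the mark would have been called in spermatocytes.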

How the data were processed

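The submitters' processing notes, per the labels, name SICER, deepTools 1.5.11, Bowtie2 2.2.5, CASAVA 1.8.2 and the build mm9, with no settings. How duplicate and multiply mapped reads were treated is unknown here. The authors deposited 8 lists of islands with no header, holding counts of ChIP and input reads per island, a p-value, a q-value and a fold, which is a ratio: ChIP reads over input reads, scaled by a constant of the list. Islands of the same coordinates in lists of 1 stage had equal input counts in every case (3615 in round spermatids, 6619 in spermatocytes), so each stage shared 1 input, and its counting error is common to the 4 marks.

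Groups were taken from sample titles. Islands on the 19 autosomes were merged and classified with pandas 2.3.3 and numpy 2.4.6, and the procedure was tested on simulated data. Intervals are exact (Clopper-Pearson, conditional binomial) or from order statistics, by SciPy 1.17.1. With 1 library per group no test was made. Named regions were, for each lacking mark, the 2 with the most round spermatid ChIP reads of that mark and, with at least 50 ChIP reads in each of the 7 lists, the 2 with its highest and the 2 with its lowest round spermatid fold and the 1 with the highest mean log2 spermatocyte fold. The text gives those it needs, and the regions nearest the calling threshold. The regions and rules were chosen with earlier results of these data known. Alternatives were a q-value of at most 1e-04, lists of equal length, a coverage of at least 10% of the region, merging up to 1000 bp, removal of deep input, and the fold of the island with the most ChIP reads.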

Additional observations from a re-analysis of the deposited data

Results flagged for a closer look

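The X chromosome lies outside the rule, which takes autosomes. Merged and classified in the same way, X had 11 regions with exactly 3 marks in spermatocytes and all 4 in round spermatids, out of 89 with exactly 3 in spermatocytes. Of these, 7 lacked H4K8ac and 4 lacked H4K5bu in spermatocytes. They are listed because they are a signal in data not used above, and they were not compared with the autosomes.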

How the results depend on the processing

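Counts of regions stayed within 1.5 times, and medians within their intervals, with a stricter q-value, a minimum coverage, wider merging, removal of deep input and, for medians, the island with the most ChIP reads. Lists of equal length changed most results. They gave 828 regions in all, 171 lacking H4K5ac, 304 H4K5bu, 188 H4K8ac and 165 H4K8bu in spermatocytes. The median round spermatid fold of the lacking mark was 3.404 for H4K8ac, 4.04 for H4K8bu, 4.62 for H4K5bu and 5.77 for H4K5ac. This alternative keeps the islands of highest fold, so higher medians follow from its construction. The median log2 ratio of round spermatid to spermatocyte fold was 0.16 for H4K8ac and 0.27 for H4K8bu with H4K5bu lacking, and 0.30 for H4K5ac, 0.45 for H4K5bu and 0.19 for H4K8bu with H4K8ac lacking. The opposite pattern, added after seeing the data, had 182 regions for H4K5ac, 173 for H4K5bu and 680 for H4K8ac. Of the 24 named regions, 3 met the rule at equal length. The deep-input region on chromosome 11 then had an H4K8bu fold of 3.55 and did not meet it. No paired analysis was possible because each group had 1 library. Depth limits the uncalled marks, whose reads are known in no region, and folds over few input reads.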
